A study of Mus musculus with 4 samples.

Results

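Slc15a2 encodes PEPT2, a high-affinity carrier that brings small peptides into cells together with protons. It was set here beside its relatives Slc15a1, Slc15a3 and Slc15a4, which makes 4 genes of the 29897 listed in single-cell libraries of mouse colon. The data were 2 libraries from mice dosed with CCl4 (carbon tetrachloride, which scars the liver) for 6 weeks from 6 weeks of age, and 2 libraries from control mice. The treated mice were specific pathogen free per the series text, which does not say this of the controls. The sample labels name the groups by treatment alone. Strain, sex, cage, the age and vehicle of the control mice and the number of animals in a library are not given in the sources used here. Slc15a2 was selected on its measured level in these same libraries, which was known to be lower after CCl4 in nearly all cell types. Its levels and ratios are therefore given as a description, without a test. Slc15a3, Slc15a4, the neighbours of Slc15a2 and lists of related genes were tested, while Slc15a1 had too few counts for a test in any class.

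Members of the SLC15 family move dipeptides, tripeptides and peptide-like drugs down a proton gradient. Slc15a1 (PEPT1) is the high-capacity carrier of the small intestinal brush border, and Slc15a2 is best known from the kidney tubule, where it recovers filtered peptides, and from the choroid plexus. Slc15a3 (PHT2) and Slc15a4 (PHT1) sit in the membranes of endosomes and lysosomes, carry histidine and bacterial peptides, and are known for their part in the sensing of bacterial products by macrophages and dendritic cells.

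In the GRCm38 build of the authors, Slc15a2 lies on the minus strand of chromosome 16, from 36750177 to 36784962, and its transcript Slc15a2-201 has 22 exons in GENCODE M21. The processed pseudogene Gm8425 lies inside it on the other strand, from 36778834 to 36779602, and overlaps 0 exons of any Slc15a2 transcript. Slc15a1 lies on chromosome 14 from 121459621 to 121505252, Slc15a3 on chromosome 19 from 10839727 to 10859362, and Slc15a4 on chromosome 5 from 127595664 to 127632897. The 4 genes are thus on 4 chromosomes.

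The promoters of Slc15a2 and Slc15a4 are shown because both carriers were counted in most cell classes, Slc15a2 with the groups far apart and Slc15a4 with the groups close together. Each runs from 250 bases before to 50 bases after the start of the gene in RefSeq, on the gene's own strand, in GRCm38.p6. For Slc15a2 that start is the one of GENCODE M21, while for Slc15a4 it lies inside the GENCODE bounds of the gene. The window of Slc15a2 is chr16:36784913-36785212 and that of Slc15a4 is chr5:127617343-127617642, both on the minus strand. Capitals mark the GC box, GGGCGG, on either strand.
Slc15a2: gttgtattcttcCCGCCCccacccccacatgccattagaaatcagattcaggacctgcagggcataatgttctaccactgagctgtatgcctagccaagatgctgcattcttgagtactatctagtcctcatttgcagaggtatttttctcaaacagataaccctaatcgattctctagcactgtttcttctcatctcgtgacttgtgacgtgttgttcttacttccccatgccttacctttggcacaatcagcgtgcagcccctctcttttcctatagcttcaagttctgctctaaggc
Slc15a4: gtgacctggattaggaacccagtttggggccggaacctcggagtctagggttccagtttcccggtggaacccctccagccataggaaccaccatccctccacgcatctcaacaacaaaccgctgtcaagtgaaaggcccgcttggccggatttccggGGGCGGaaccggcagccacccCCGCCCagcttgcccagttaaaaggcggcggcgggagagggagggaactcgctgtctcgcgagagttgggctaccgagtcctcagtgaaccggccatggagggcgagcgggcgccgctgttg

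The Slc15a2 window had 46.3% G and C and 5 CpG pairs, and the Slc15a4 window had 64.0% and 23 CpG pairs. The median over 32851 mouse promoters of the same length was 52.7% and 7 CpG pairs. The GC box occurred 1 time in the Slc15a2 window and 2 times in that of Slc15a4, and 35.7% of all promoters held it. The other motifs searched on both strands had 0 matches in both windows. They were the E-box CACGTG, held by 7.15% of all promoters, the cyclic AMP element TGACGTCA (1.79%) and the TATA box TATAAA (13.6%). The rest were the CCAAT box CCAAT (37.4%), a core of the interferon-stimulated response element (3.44%) and a consensus NF-kB site (0.341%). These matches describe letters in the windows and nothing about the binding of a factor.

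The cells came from enzymatically dissociated colon and were caught in droplets. The CCl4 libraries held 13986 and 12464 barcodes with 92383719 and 74643979 counts, and the control libraries held 10021 and 10038 barcodes with 55834301 and 58667918 counts. After quality filters 10382 and 9791 cells of CCl4 mice and 8103 and 8245 cells of control mice were used. Of their 25 clusters, 21 could be named from marker genes and 13 cell classes held at least 50 cells in every library. Of the cells past the filters, 0 shared an identical profile across libraries. The median mitochondrial share of the used cells was 7.52% and 6.84% in the CCl4 libraries, against 4.84% and 4.56% in the control libraries. The epithelial classes made up 26.3% and 25.6% of the cells of the CCl4 libraries, against 15.7% and 13.5% in the control libraries. Goblet cells numbered 843 and 755 after CCl4, against 251 and 263 in controls. Epithelial cells of no single type numbered 1008 and 809, against 355 and 296. Absorptive cells differed less, with 828 and 884 after CCl4, against 633 and 530 in controls.

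Over all cells Slc15a2 had 3.12 and 3.78 CPM (counts per 1000000) in the CCl4 libraries, against 17.3 and 17.4 CPM in the control libraries. These are 225 and 230 counts after CCl4 and 806 and 872 counts in controls. A count was found in 137 and 139 cells of the CCl4 libraries and in 422 and 396 cells of the control libraries, with no more than 13 counts in a cell. The gene is thus sparse, and its values rest on sums over the cells of a class. Both CCl4 libraries lay far below both control libraries, while the libraries of a group lay close together. A total over all cells mixes the number of cells of a type with their level, so the levels are given class by class.

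Immune cells held the highest Slc15a2 levels, and the groups were farthest apart in CPM there. Macrophages and monocytes had 9.38 and 13.9 CPM in the CCl4 libraries, against 61.1 and 62.9 CPM in the control libraries. T cells had 9.37 and 6.52 CPM after CCl4, against 62.9 and 57.8 CPM in controls. Dendritic cells were named from markers that include Flt3, Zbtb46 and Cd209a, while Csf2rb, Il1b and Il1r2 were among their leading genes. They had 3.39 and 0 CPM after CCl4, against 63.7 and 46.0 CPM in controls. In each of these 3 classes the lower control library was more than 3 times the higher CCl4 library, and the groups did not overlap. B cells, which include only 39 cells in one control library, had 8.49 and 2.36 CPM after CCl4, against 60.8 and 67.5 CPM in controls. The class of natural killer and innate lymphoid cells, led by Gata3, Il5 and Il13, had 2.03 and 13.1 CPM after CCl4, against 35.2 and 41.8 CPM in controls. Its name is that of the marker set, whose members among its 10 leading genes were Gata3 and Il1rl1. The values of this class are therefore not shown to be those of natural killer cells. Plasma cells, the antibody-secreting cells, had 6.22 and 2.98 CPM after CCl4, against 16.1 and 22.1 CPM in controls. Among these lymphoid classes the CCl4 libraries were again the lower ones without overlap, and plasma cells stood well under the others in controls.

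Epithelium and glia showed the same order of the groups, at control levels under those of macrophages, T cells and dendritic cells. Goblet cells, which make mucus, had 3.32 and 2.82 CPM of Slc15a2 in the CCl4 libraries, against 18.3 and 23.7 CPM in the control libraries. Enteric glia, the supporting cells of the gut nervous system, had 5.01 and 2.14 CPM after CCl4, against 18.2 and 27.0 CPM in controls. Colonocytes, the absorptive cells at the gut surface, had 2.80 and 4.28 CPM after CCl4, against 10.4 and 8.47 CPM in controls. None of these 3 classes overlapped between the groups, and goblet cells exceeded colonocytes in both control libraries. The undivided epithelial cells, whose genes fit no single epithelial type, had 1.56 and 3.37 CPM after CCl4, against 12.8 and 5.73 CPM in controls.

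Vascular classes stood slightly above colonocytes in control means, and fibroblasts and smooth muscle had the lowest means of the 13 classes in the fit. Endothelial cells had 0.943 and 1.97 CPM after CCl4, against 13.1 and 13.6 CPM in controls. Fibroblasts had 1.24 and 1.99 CPM after CCl4, against 6.67 and 3.91 CPM in controls. Smooth muscle had 1.44 and 0.598 CPM after CCl4, against 2.79 and 2.77 CPM in controls, from 4 and 10 counts in all. Smooth muscle is thus the class with the lowest level in controls. Lymphatic endothelial cells had 0 counts in both CCl4 libraries and 7 counts in the control libraries, at 10.2 and 15 CPM. Set against a floor of 3 counts over both CCl4 libraries, the level in lymphatic cells was at least 3.74-fold lower after CCl4.

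**Figure D1:**
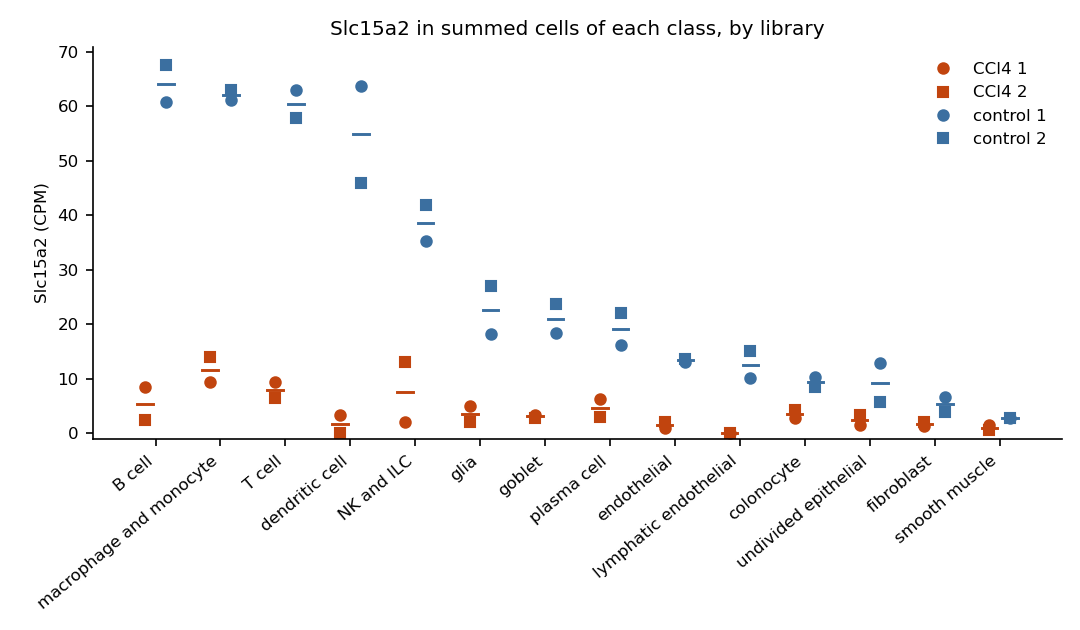
Slc15a2 in CPM (vertical axis) in each cell class, with CCl4 libraries in orange on the left and control libraries in blue on the right of each class. Points are libraries and bars are group means. Both CCl4 libraries lie below both control libraries in all 14 classes drawn, and the control levels run from 64.1 CPM in B cells to 2.78 CPM in smooth muscle.

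In all 13 classes with at least 50 cells per library, and in B cells as well, both CCl4 libraries were lower than both control libraries. Over all genes and classes tested, both CCl4 libraries were below both control libraries in 20.7% of the pairs of gene and class and above both in 21.2%. Since this contrast was used to choose Slc15a2, nothing is read from that difference. Enteroendocrine cells, with 28 to 55 cells per library, had 6.17 and 8.76 CPM after CCl4, against 4.05 and 25.7 CPM in controls, and overlapped. Interstitial cells of Cajal held 1 count in all. Of the 24 clusters with cells in every library, 18 had both CCl4 libraries below both control libraries, 6 overlapped and 0 had the opposite order.

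The size of the difference was estimated with edgeR's model of summed counts in the 11 classes where Slc15a2 passed the filter on low counts. The log2 ratio of CCl4 over control ranged from -4.77 ± 0.651 (SE) in dendritic cells to -1.43 ± 0.295 in colonocytes, with a median of -2.41. T cells stood at -2.85 ± 0.36, macrophages and monocytes at -2.41 ± 0.246, goblet cells at -2.72 ± 0.285, and endothelial cells at -3.17 ± 0.534. Fibroblasts at -1.74 ± 0.443 and undivided epithelial cells at -1.99 ± 0.527 were among the smaller ones. The mean level of controls was 7.6 times that of CCl4 in T cells, 5.33 times in macrophages and monocytes, and 2.67 times in colonocytes. The dendritic value rests on 4 counts after CCl4, all in one library, and became -8.57 without that library and -3.89 without the other. The value of -8.57 is fitted against 0 counts after CCl4, so it depends on the prior count and is no bound. In natural killer and innate lymphoid cells 6 of the 7 counts after CCl4 came from the second library, and the ratio of -2.32 ± 0.733 became -4.04 without it and -1.53 without the first. Without the first CCl4 library, glia changed to -3.28 from their -2.54 with all libraries, and plasma cells to -2.80 from their -2.11. Without the first control library, undivided epithelial cells stood at -1.28.

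The order of the classes in controls fell into steps. B cells averaged 64.1 ± 4.75 CPM (SD, n = 2), macrophages and monocytes 62.0 ± 1.27, T cells 60.4 ± 3.63 and dendritic cells 54.8 ± 12.5, and neighbours in this order overlapped between their libraries. Natural killer and innate lymphoid cells at 38.5 ± 4.67 CPM came next, below dendritic cells and above glia in every control library. Glia at 22.6 ± 6.25 CPM, goblet cells at 21 ± 3.82 and plasma cells at 19.1 ± 4.27 overlapped one another, and all 3 lay above endothelial cells at 13.3 ± 0.336 in both control libraries. From endothelial cells down to fibroblasts at 5.29 ± 1.96, each class overlapped the next one. Enteroendocrine cells, at 4.05 and 25.7 CPM from few cells, cannot be placed. Smooth muscle at 2.78 ± 0.0117 CPM was below fibroblasts in both control libraries. In the CCl4 libraries the order was blurred: macrophages and monocytes averaged 11.6 ± 3.18 CPM and T cells 7.95 ± 2.01, and the class means ran from 0 to 11.6 CPM. The immune classes held 33.3% and 24.3% of all Slc15a2 counts in the CCl4 libraries, against 55.0% and 59.9% in the control libraries. They also made up 17.8% and 16.6% of the CCl4 cells, against 25.2% and 24.0% of the control cells. Both shares count named classes only. They leave out an unnamed T and innate lymphoid cluster, with 9 and 4 counts after CCl4, against 51 and 53 counts in controls.

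The share of cells with a Slc15a2 count moved in the same way. In T cells it was 1.48% and 0.99% after CCl4, against 10.3% and 8.13% in controls, and in macrophages and monocytes it was 2.59% and 3.38%, against 10.6% and 11.3%. Since deeper cells show more, each cell was thinned to 1000 counts. T cells then had 0.988% and 0.99% of cells with a count after CCl4, with exact binomial 95% intervals of 0.27% to 2.51% and 0.205% to 2.87%. Control T cells had 4.35% and 3.66%, with intervals of 2.74% to 6.51% and 2.18% to 5.72%. The intervals cover counting error within a library only. Thinned smooth muscle, the class with the lowest level, had 0.434% and 0% after CCl4 and 0.649% and 0.668% in controls. Both CCl4 libraries were below both control libraries in 13 of the 13 classes before thinning and in 9 after it. The groups then overlapped in colonocytes, endothelial cells, glia and undivided epithelial cells. Thinned undivided epithelial cells had 0.198% and 0.742% after CCl4, against 0.563% and 0% in controls. Of the thinned goblet cells in the CCl4 libraries, 1 of 843 and 0 of 755 had a count. The exact 95% upper bounds on these goblet shares were 0.659% and 0.487%.

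Barcodes outside the cells used gave the same contrast. Barcodes that failed the filters on genes or mitochondrial share had 3.19 and 2.61 CPM of Slc15a2 in the CCl4 libraries, against 12.3 and 9.04 CPM in the control libraries. Cells removed as likely doublets had 2.14 and 4.09 CPM after CCl4, against 17.9 and 19.1 CPM in controls. In used cells restricted to at most 10% mitochondrial counts and at least 500 genes the median log2 ratio was -2.31 over 9 classes. It was -2.41 over the 11 classes of the main fit, which also include colonocytes and glia. The part of mitochondrial share in the difference was not tested.

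Free RNA in the droplets can carry counts from one cell type to another, so the markers of the strongest classes were summed elsewhere. Goblet cells held 1.99 and 2.40 CPM over 7 T cell markers after CCl4 and 5.17 and 5.85 CPM in controls, which is 0.245% of the control T cell level. The 8 macrophage and monocyte markers summed to 47.6 and 49.0 CPM in goblet cells after CCl4 and 39.9 and 44.6 CPM in controls, or 0.202% of their level in control macrophages and monocytes. Control goblet cells had 34.8% of the Slc15a2 level of control T cells, and the part of free RNA in it was not tested. In the other direction, 7 goblet markers summed to 396 and 396 CPM in T cells after CCl4 and 171 and 175 CPM in controls. Goblet transcripts in T cells were thus higher in the libraries where Slc15a2 was lower, and the part of free RNA in the T cell values of Slc15a2 was not tested.

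Finer clustering kept the contrast within macrophages. A group led by Pf4, F13a1 and C1qa had 11.2 and 8.70 CPM of Slc15a2 after CCl4, against 43.9 and 47.0 CPM in controls. A group led by the chemokines Ccl4, Cxcl2 and Ccl3 had 11.4 and 37.8 CPM after CCl4, against 65.5 and 97.0 CPM in controls. A group led by Mmp13 and Il1b had 4.93 and 3.81 CPM after CCl4, against 95.2 and 69.2 CPM in controls. The groups did not overlap in any of the 3, and the second CCl4 library was high among chemokine-rich cells. Since these clusters were drawn from the same cells, differences between them were not tested.

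In 6 clusters the libraries of the groups overlapped. Fibroblasts led by Adamdec1 and Tnc had 1.37 and 4.38 CPM of Slc15a2 after CCl4, against 3.61 and 1.69 CPM in controls. Fibroblasts led by Bmp5 had 0 and 0 CPM after CCl4, against 0 and 16.2 CPM in controls. Only the fibroblasts led by C3 and Pi16 did not overlap, at 1.32 and 0.642 CPM, against 8.51 and 3.86 CPM. The lower class value of fibroblasts thus sums over clusters that differ in this respect. An unnamed cluster led by the long genes Cntnap2 and Csmd3 had 7.93 and 16.1 CPM after CCl4, against 8.17 and 5.57 CPM in controls. It held 202 and 665 cells of the CCl4 libraries, against 37 and 362 of the control libraries, so it is uneven between libraries of the same group. An unnamed T and innate lymphoid cluster led by Icos and Il22 followed the general order, with 5.54 and 3.31 CPM after CCl4, against 34.5 and 30.3 CPM in controls.

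Slc15a1, the intestinal carrier, was nearly silent. Over all cells it had 0.554 and 0.821 CPM in the CCl4 libraries, against 0.214 and 0.638 CPM in the control libraries, and it passed the filter on low counts in 0 of the 13 classes. Colonocytes, where an apical peptide carrier might be looked for, had 0.0848 and 0.624 CPM after CCl4, against 0.406 and 0.431 CPM in controls, from 8 and 6 counts. The groups overlapped, and no difference was detectable at this depth. Its highest values were in the unnamed Cntnap2 cluster, at 3.97 and 13.4 CPM after CCl4, against 0 and 10 CPM in controls.

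Slc15a3 was highest in macrophages and monocytes and in dendritic cells. Macrophages and monocytes had 236 and 206 CPM of Slc15a3 after CCl4, against 185 and 192 CPM in controls, a log2 ratio of 0.24 ± 0.118 (adjusted p = 0.4587 in edgeR's quasi-likelihood test). Dendritic cells had 176 and 148 CPM after CCl4, against 136 and 77.0 CPM in controls, a log2 ratio of 0.68 ± 0.259 (adjusted p = 0.5304 in the same test). In both classes the CCl4 libraries were the higher ones without overlap, and neither difference passed the test. The dendritic call changed with 1 library: without the first control library, the log2 ratio was 1.15 with an edgeR adjusted p of 0.00255. That fit has a lone control library, assumed to vary like the CCl4 libraries. Endothelial cells had 8.73 and 7.90 CPM after CCl4, against 9.08 and 12.3 CPM in controls. T cells had 0.720 and 1.09 CPM after CCl4, against 1.31 and 1.23 CPM in controls. These T cell values are 1 and 1 counts after CCl4 and 2 and 2 counts in controls, too few for a test. The macrophage values are the opposite order to those of Slc15a2 in the same cells.

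Slc15a4 was counted in every class fitted. Macrophages and monocytes had 70.4 and 59.7 CPM of Slc15a4 after CCl4, against 57.4 and 52.8 CPM in controls, a log2 ratio of 0.26 ± 0.171 (adjusted p = 0.6527, edgeR). Colonocytes had 18.5 and 17.4 CPM after CCl4, against 15.2 and 16.7 CPM in controls, and goblet cells had 20.6 and 17.4 CPM, against 19.2 and 23.4 CPM. T cells had 7.92 and 8.70 CPM after CCl4, against 21 and 17.2 CPM in controls, a log2 ratio of -1.18 ± 0.505 (adjusted p = 0.3991, edgeR). Among the 11 classes tested, T cells had the largest Slc15a4 difference, and it did not pass the test although the groups did not overlap. B cells had 63.7 and 47.3 CPM after CCl4, against 128 and 77.2 CPM in controls, but were too few for the model.

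Over Slc15a1, Slc15a3 and Slc15a4, edgeR tested 17 pairs of gene and class, none of them of Slc15a1, and called 0 at an adjusted p under 0.05. At an unadjusted p under 0.05 there were 2 of the 17, Slc15a3 in dendritic cells and Slc15a4 in T cells, and DESeq2 called 0 of the pairs to which it gave an adjusted p (5 classes of Slc15a3 and 6 of Slc15a4). The share of all genes called in each class was 1.07% in natural killer and innate lymphoid cells, 1.15% in T cells, 1.06% in colonocytes, 0.115% in dendritic cells and 0.533% in endothelial cells. It was 1.98% in fibroblasts, 0.642% in glia, 1.11% in goblet cells, 0.228% in lymphatic endothelial cells and 1.59% in macrophages and monocytes. Plasma cells had 1.17%, smooth muscle 1.65% and undivided epithelial cells 1.75%. With shares this low, 0 of 17 is near what the background gives. The median log2 ratio over tested classes was 0.08 for Slc15a3, from 6 classes between -0.81 and 0.68, and 0.07 for Slc15a4, from 11 classes between -1.18 and 0.26. The interval of a single class remains wide: for macrophages and monocytes the 95% bounds of Slc15a4 ran from -0.10 to 0.61.

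Directions of the other carriers differed between classes, and 2 such differences, picked after the values were seen, were tested. The log2 ratio of Slc15a4 in T cells minus that in macrophages and monocytes was -1.496 (adjusted p = 0.2553 over 11707 genes, edgeR interaction term). For Slc15a3 the ratio in endothelial cells minus that in dendritic cells was -1.081 (adjusted p = 0.7632 over 12104 genes, edgeR). Neither difference passed.

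**Figure D2:**
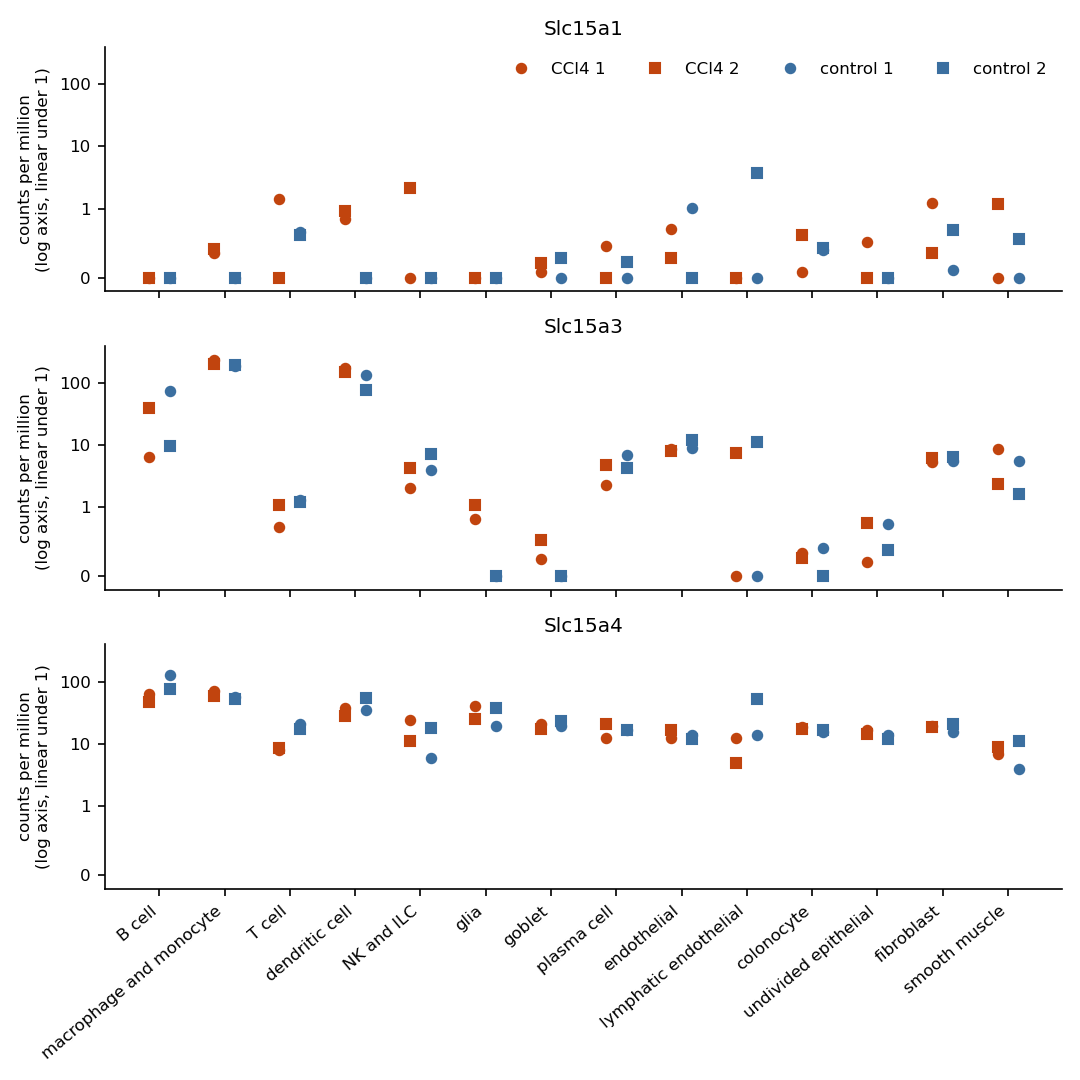
Slc15a1, Slc15a3 and Slc15a4 in CPM (vertical axis, logarithmic above 1 and linear below) in the same 14 cell classes, with CCl4 libraries in orange on the left and control libraries in blue on the right. Slc15a1 lies under 4 CPM throughout, Slc15a3 is highest in macrophages and monocytes, dendritic cells and 1 control library of B cells, and Slc15a4 is found in every class, with the 2 groups close together in most.

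Slc15a2 was set beside all genes measured as widely. Of 7715 genes that passed the filter in at least 10 of the 13 classes, 115 had the same sign in every class, 62 lower and 53 higher after CCl4. Slc15a2 had the lowest median of all 7715, -2.41, while 1% of the medians were at or below -0.35. This rank only describes Slc15a2, which was chosen for its lower level after CCl4 in these same libraries. Next after it came Gbp2 at -0.74, Psmb9 at -0.69, Psme2b at -0.61, CT010583.1 at -0.58, Wdr89 at -0.54, Gbp3 at -0.52 and Rbm8a2 at -0.45. Gbp2 and Gbp3 encode guanylate-binding proteins induced by interferon gamma, and Psmb9 encodes an immunoproteasome subunit that helps to cut peptides for antigen presentation. Psmb9 had 44.5 and 46.4 CPM over all cells of the CCl4 libraries, against 81.5 and 80.5 CPM in the control libraries, and fell in 4 of 13 classes by edgeR's test at an adjusted p under 0.05. Psme2b fell in 4 of 13 and Gbp2 in 1 of 12. Over all classes 0.439% of pairs of gene and class were called lower and 0.733% higher. The genes named here were picked by their ratios in these same fits, so their numbers of calls only describe them.

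At the other end stood genes that included Pigr, Muc13 and Zg16, known from the intestinal epithelium. Sycn had a median log2 ratio of 2.02 and rose in 11 of 13 classes, Hao2 had 1.71 and rose in 6 of 10, and Klk1 had 1.5 and rose in 8 of 13. They were followed by 2610528A11Rik at 1.47, Muc13 at 1.42, Adh1 at 1.29, Zg16 at 1.25 and Pigr at 1.23. All of them were likewise picked by their ratios in the same fits, so their numbers of calls are a description. Pigr, the carrier of immunoglobulin A across the epithelium, had 1090 and 1090 CPM over all cells after CCl4, against 519 and 634 CPM in controls. These genes moved with the larger epithelial part of the CCl4 libraries, and the part of free epithelial RNA in their values was not tested. Control colonocytes and goblet cells had lower Slc15a2 levels than control T cells, macrophages and dendritic cells, and Slc15a2 was lower after CCl4 within each of these classes.

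Genes were also ranked by how like Slc15a2 they were in level across classes. Over the 13 classes of control libraries and 11418 genes with at least 20 CPM in some class, the highest Pearson correlations with Slc15a2 on the log2(CPM + 1) scale were those of Nfkbib (0.918), Birc3 (0.910), Rel (0.906), Lrrc8d (0.906) and Chordc1 (0.897). The points share libraries and depth, so these are a description. Rel encodes an NF-kB subunit, Nfkbib an inhibitor of NF-kB, Birc3 an inhibitor of apoptosis, Lrrc8d a subunit of a volume-regulated anion channel and Chordc1 a co-chaperone of Hsp90. Rel, for example, had 302 CPM in control macrophages and monocytes, 227 in T cells, 393 in dendritic cells and 12 in smooth muscle. These genes did not follow Slc15a2 between the groups: Nfkbib, Birc3, Rel and Lrrc8d were called in 0 of their 12 or 13 classes, Chordc1 was higher in 1, and their median log2 ratios lay between -0.21 and 0.20.

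Genes beside Slc15a2 on chromosome 16 were tested for a shift that would extend past the gene. Within 1 Mb of its start, 36 genes had counts and 23 were tested in at least 1 class, giving 201 pairs of gene and class. Of these 201, 1 was higher and 0 were lower, which is 0.498%, beside 0.733% higher and 0.439% lower over all genes and classes. The one call was Gm15564, annotated as an antisense RNA, in natural killer and innate lymphoid cells at 64.8 and 50.1 CPM after CCl4, against 7.83 and 5.46 CPM in controls (log2 ratio 3.11, edgeR adjusted p = 0.0005204). Whether the counting used strand is not stated in the labels or headers, so reads of Gm15564 and of genes on the other strand cannot be told apart. Its start is -801.7 kb from that of Slc15a2 and its order was the opposite. In the other classes it was not called.

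The closest neighbours were called in 0 classes. Ildr1 (36693978 to 36726804), with its start at -91.0 kb, encodes a receptor of tricellular junctions and had 115 and 124 CPM in colonocytes after CCl4, against 129 and 111 CPM in controls. On the other side lie Iqcb1 (36828385 to 36872721), which encodes a protein of the primary cilium, and Eaf2 (36792884 to 36875003), which encodes a factor associated with transcription elongation. Eaf2 had 365 and 407 CPM in plasma cells after CCl4, against 417 and 407 CPM in controls, and Iqcb1 had 95.4 and 91.8 CPM there, against 87.1 and 98.5 CPM. The groups lay close together in these classes. In other classes they lay farther apart. Eaf2 in T cells had 4.32 and 5.44 CPM after CCl4, against 10.5 and 13.5 CPM in controls (log2 ratio -1.28, edgeR adjusted p = 0.5647). Iqcb1 in dendritic cells had 11.0 and 11.5 CPM after CCl4, against 27.3 and 24.6 CPM in controls (log2 ratio -1.14, edgeR adjusted p = 0.5567). Both were lower after CCl4 without overlap, and neither passed the test. Ildr1 in endothelial cells had a log2 ratio of 1.33 (edgeR adjusted p = 0.6426). Over all cells, Eaf2 had 26.8 and 30.1 CPM after CCl4, against 79.0 and 78.4 CPM in controls. Plasma cells numbered 299 and 252 in the CCl4 libraries, against 552 and 526 in the control libraries. The part of cell numbers in the Eaf2 difference over all cells was not tested. Within plasma cells, Slc15a2 had 6.22 and 2.98 CPM after CCl4, against 16.1 and 22.1 CPM in controls. Among the 20 neighbours tested in at least 3 classes, the median log2 ratio lay between -0.25 and 0.47.

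**Figure D3:**
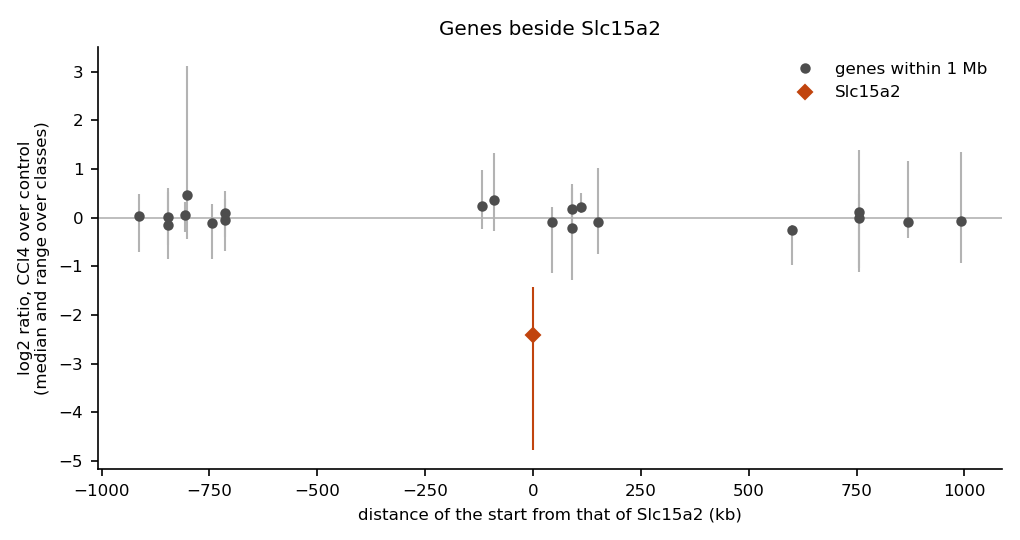
Log2 ratio of CCl4 over control (vertical axis; point, median over classes; line, range over classes) against the distance of each gene's start from that of Slc15a2 in kb (horizontal axis), for Slc15a2 and the 20 genes within 1 Mb tested in at least 3 classes. The neighbours' medians lie between -0.25 and 0.47, while that of Slc15a2 is -2.41.

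The labels give neither the stock nor the cages of the mice, so a genetic or housing difference between the groups and the treatment cannot be told apart for Slc15a2. Genes known for such differences were read off beside it. Of 12 genes that differ between common inbred strains, 9 were among the files' genes and 7 were tested, in 58 pairs of gene and class, of which 1 was higher and 0 were lower, beside 0.733% higher and 0.439% lower over all pairs. Nnt, a mitochondrial enzyme with a deletion in one widely used substrain, had 8.46 and 11.6 CPM over all cells after CCl4, against 9.23 and 9.89 CPM in controls, and the groups overlapped. Glo1, which is duplicated in some strains, had 74.8 and 69.4 CPM after CCl4, against 69.1 and 68.4 CPM in controls. The 1 called gene was Gpnmb, a macrophage membrane protein truncated in one strain, in macrophages and monocytes at 158 and 116 CPM, against 50.8 and 71.1 CPM (log2 ratio 1.18 ± 0.168, edgeR adjusted p = 0.0001645). These genes cover few places in the genome, and a difference of stock elsewhere was not tested.

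Sex-linked transcripts were read in each library. Xist, the RNA of the inactive X chromosome, had 0.166 and 0.328 CPM over all cells after CCl4, against 0.3 and 0.199 CPM in controls. Kdm5d, on the Y chromosome, had 10.7 and 11.4 CPM after CCl4, against 8.39 and 8.69 CPM in controls. The groups did not overlap for Kdm5d, and all 4 libraries had Y-linked transcripts and nearly no Xist. Over all cells Ddx3y, also on the Y chromosome, had 112 and 105 CPM after CCl4, against 137 and 136 CPM in controls. Of 47 pairs of sex-linked gene and class, 1 was called lower, where 0.439% of all pairs were. It was Ddx3y in T cells, at 278 and 312 CPM after CCl4, against 418 and 457 CPM in controls (log2 ratio -0.55 ± 0.141, edgeR adjusted p = 0.04205).

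Epithelial genes known to respond to gut microbes were read in the same way. Of 55 pairs of the 10 genes and the classes, 2 were higher and 3 were lower, where 0.733% of all pairs were higher and 0.439% lower. Goblet cells had 1200 and 1290 CPM of Retnlb, an antibacterial protein, after CCl4, against 2180 and 2780 CPM in controls (log2 ratio -0.96 ± 0.0942, edgeR adjusted p = 0.0001409). Their Duox2, an oxidase that makes hydrogen peroxide, had 66.7 and 74.1 CPM, against 112 and 124 CPM (log2 ratio -0.71 ± 0.102, adjusted p = 0.002894 in edgeR). Reg3b, an antibacterial lectin, rose in colonocytes (342 and 527 CPM, against 297 and 257 CPM), while Reg3g fell in undivided epithelial cells (21.8 and 26.6 CPM, against 34.9 and 78.4 CPM). The list thus moved in both directions. The remaining call was Retnlb in plasma cells, at 11.3 and 11.0 CPM after CCl4, against 2.48 and 2.74 CPM in controls. Retnlb is a goblet cell gene, and the 7 goblet markers summed to 144 and 275 CPM in plasma cells after CCl4, against 35.9 and 35.3 CPM in controls; their part in this call was not tested.

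Among 9 partners of the peptide carriers, which supply the proton gradient or the scaffold, 5 of 80 pairs of gene and class were higher after CCl4 and 0 lower, where 0.733% of all pairs were higher. The median log2 ratio of the list was 0.03, beside 0 over all genes. Atp1b1, the beta subunit of the sodium pump, made up 4 of the 5, for example in T cells at 122 and 100 CPM after CCl4, against 45.2 and 51.0 CPM in controls (log2 ratio 1.23 ± 0.222, edgeR adjusted p = 0.001172). Atp1b1 is also an epithelial gene, with 673 and 714 CPM in undivided epithelial cells after CCl4, against 473 and 551 CPM in controls, and the part of free epithelial RNA in its T cell values was not tested. The remaining call was the sodium-proton exchanger Slc9a2 in goblet cells, at 6.30 and 7.41 CPM, against 0.913 and 1.39 CPM (log2 ratio 2.57 ± 0.478, edgeR adjusted p = 0.01875). The scaffold gene Slc9a3r1, which anchors carriers at the apical membrane, was called in 0 classes.

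Downstream of the carriers, 13 genes of bacterial peptide and endosomal sensing gave 95 pairs, of which 0 were higher and 1 was lower. That was Irf7, a transcription factor of the interferon response, in colonocytes at 48.7 and 42.1 CPM after CCl4, against 71.3 and 64.1 CPM in controls (log2 ratio -0.58 ± 0.115, edgeR adjusted p = 0.02241). Nod1 and Nod2, which sense bacterial cell wall peptides that PEPT carriers can bring in, were called in 0 classes, as was Ripk2. Nod2 had 4.89 and 5.53 CPM over all cells after CCl4, against 4.28 and 4.84 CPM in controls. Of the 14 peptidases that make or clear small peptides, with 131 pairs, 0 were higher and 2 were lower, both Dpep1, a membrane dipeptidase. Dpep1 had 197 and 162 CPM in fibroblasts after CCl4, against 258 and 248 CPM in controls (log2 ratio -0.50 ± 0.0999, edgeR adjusted p = 0.01584). The 11 amino acid carriers gave 102 pairs and 0 calls by edgeR, with a median log2 ratio of -0.04. Slc3a2, the heavy chain shared by several of these carriers, had 101 and 105 CPM over all cells after CCl4, against 130 and 129 CPM in controls. These counts stand beside the 0.439% lower and 0.733% higher over all genes and classes.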

How the data were processed

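Per the labels, colon of 2 CCl4 and 2 control libraries was dissociated and sequenced from droplets. The deposited matrices hold raw whole-number counts per gene and barcode, made with PISA v0.12b according to their own header lines (per the file headers). GRCm38 is the build per the submitters' processing notes. No label or header names an aligner. Every barcode had at least 1001 counts, so low barcodes had been removed before deposition. Cell names are running numbers, of which 8191 to 10738 occur in both libraries of a pair, so they say nothing of shared cells. Of the gene symbols, 98.3% were in GENCODE M21.

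Barcodes under 200 genes or over 25% mitochondrial counts were dropped, and the 6% with the highest Scrublet doublet scores were removed in each library (scanpy 1.11.5). Clusters came from 2000 variable genes without SLC15 members and antigen receptor segments, 30 principal components, 15 neighbours and leidenalg 0.10.2 at resolution 1.0. Names came from 25 marker sets and needed 3 raised markers and a lead of 0.5 in mean log2 ratio. The 4 unnamed clusters were not fitted. Cluster names are rebuilt here, not the authors'.

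Counts were summed per class and library. edgeR 4.0.16 (R 4.3.3, quasi-likelihood test, TMM factors, filterByExpr) compared CCl4 with control in the 13 classes with at least 50 cells per library, with Benjamini-Hochberg adjustment over all genes of a class at 0.05. The SE of a log2 ratio was its absolute value divided by the square root of the F value of that test. For Slc15a2 this SE comes from the contrast that was used to choose the gene, so it only describes the fit. On simulated counts the fit recovered 20% to 70% of 2-fold changes and 68% to 92% of 4-fold changes, depending on the class. A gene that was not called may therefore still differ. The alternative was DESeq2 1.42.0, among the others given at the end. Libraries are the replicates, and since nothing says that they come from separate animals, p-values measure the spread between libraries, which may be technical.

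The members, lists and rules were chosen with earlier results of these data known. Named genes were the SLC15 members, the 5 genes most like Slc15a2 in level, the 8 lowest and 8 highest in median log2 ratio, list members past the threshold and the neighbours nearest to Slc15a2. The finer macrophage clusters, the examples of list members that were not called and the 2 tests between classes were chosen after their values were seen.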

Additional observations from a re-analysis of the deposited data

How the results depend on the processing

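The median log2 ratio of Slc15a2 stayed between -2.73 and -2.31 under every alternative run: other size factors, no filter, DESeq2, stricter cells, doublets kept, finer clusters, thinning and leaving out each library. Of 123 values of single classes under these alternatives, all were negative, from -8.57 to -1.18, and 114 lay within the spread between libraries. The 9 others included goblet cells at -5.05, plasma cells at -3.04 and T cells at -2.13 after thinning, where few counts are left, and endothelial cells at -3.72 without the second CCl4 library. Leaving out a library gave medians of -2.73 to -2.42. Among Slc15a1, Slc15a3 and Slc15a4 the number of calls was 0 in all alternatives except without control replicate 1, with a range of 0 to 1 over the libraries left out. The lists had 15 calls, and 11 to 20 with a library left out. Within 3 Mb of Slc15a2, 1.32% of pairs were called, against 0.498% within 1 Mb. Over all genes and classes, 0.733% were higher and 0.439% lower, and the difference between the windows was not tested. Library numbers did not pair the samples: correlations of same-numbered deviations ran from -0.131 to 0.0214. With the replicate block the median for Slc15a2 was -2.42, the other carriers had 0 calls, and calls over all classes were 2880 instead of 1582. With crossed numbers there were 2535. Sparse counts limit the low classes: smooth muscle had 4 Slc15a2 counts after CCl4 and 10 in controls.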

Other observations

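Slc15a5, a family member of unknown cargo, was counted 56 and 112 times in the CCl4 libraries, against 22 and 78 times in the control libraries, and passed the filter in 0 classes. Its highest levels were, as for Slc15a1, in the unnamed cluster led by Cntnap2 and Csmd3, at 17.8 and 35.5 CPM after CCl4, against 0 and 45.7 CPM in controls. That cluster had a median depth of 0.47 times that of its libraries.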
